A study of Mus musculus with 3 samples.

Results

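The genes described here are those whose most abundant annotated transcript, by mean TPM over the libraries, carried the GENCODE biotype retained_intron. TPM is a transcript abundance, counted per unit of transcript length and scaled so that each library has an equal total. A gene was considered if it had at least 2 annotated transcripts, at least 1 of them protein_coding, and a gene TPM of at least 5 in all 3 libraries. Of 55536 genes in the deposited gene tables, 7166 met these conditions, and 150 of them (2.09%) were led by a retained_intron transcript. That is 3.01% of the 4979 genes that have any such transcript. The members were chosen by transcript TPM in the RSEM-format tables, so these values are given as a description, without a test.

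The 3 libraries, labelled as biological replicates 1, 2 and 3, were made from polyadenylated RNA of C57BL/6J macrophages, primary cells differentiated from marrow. Each is labelled with lipid A, the membrane anchor of bacterial endotoxin, at 100 ng/ml and 0 minutes. They form 1 group, and there is no other condition. The labels give 1 donor record with separate biosamples and do not state separate animals. Differences between the libraries may therefore be technical.

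Splicing removes introns from a pre-mRNA, and a transcript that keeps an intron can be held in the nucleus or be degraded when the intron brings a premature stop codon. Macrophages, like other blood cells, are known to regulate the retention of particular introns during differentiation and activation. The annotation gives the biotype retained_intron to a transcript without an assigned reading frame that holds sequence which is intronic in a coding transcript of the same gene. Such a transcript need not hold a whole intron, and it need not be a full-length RNA.

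The depth of the libraries differed, with 27941412, 29766911 and 53434670 expected counts on named genes in replicates 1, 2 and 3, and 6, 6 and 4 read files listed as their sources. The kallisto-format tables, a second quantification, gave 37414360, 38947769 and 56961574 estimated counts, with replicate 3 highest by a smaller gap. The size of the difference in depth thus depends on the quantification. Of 21 macrophage markers, 20 reached 1 TPM in all libraries, the exception being Cx3cr1, and their summed TPM ranged from 25584 to 47519. Of 30 markers of other marrow cells, 4 reached that level, and Hba-a1 and Ly6g were listed at 0 in all 3. Their summed TPM ranged from 357 to 2614. Retained_intron transcripts held 3.68%, 5.09% and 6.19% of the TPM of the 7166 genes in replicates 1, 2 and 3. The part of depth and of the source files in these differences was not tested.

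The label was first checked against the transcript models. Of the 150 leading transcripts, 30 held at least 1 complete intron, of at least 30 bases, that lies outside every exon of the gene's coding transcripts. That is 20%, against 29.7% of the 13025 other retained_intron transcripts of the 7166 genes, and 33.5% of those at a mean of 1 TPM or more. These 30 transcripts held 31 such introns, and all 31 began with GT and ended with AG, the usual splice signals. The 31 are annotated introns of coding transcripts, so these signals come with the annotation and do not check the label. Their median length was 178 bases, against 1249 bases for the 77184 introns of the leading coding transcripts of all genes considered. At most 200 bases long were 19 of the 31, against 14.6% of those 77184. A transcript can hold whole only an intron shorter than itself, so part of this difference is built in. The introns that other retained_intron transcripts hold whole were not measured. Between coding exons lay 29 of the 31, and in 25 of these the reading frame of the upstream exon met a stop codon, while 4 had none. The following introns, of GRCm38 (mm10), are shown because the leading transcript holds them whole. They are written in transcript direction from GENCODE transcript sequences. Capitals mark the first and last 2 bases and the first in-frame stop codon, which is absent from the Prelid1 intron.
Rps20 intron 1, chr4:3835292-3835483, minus strand: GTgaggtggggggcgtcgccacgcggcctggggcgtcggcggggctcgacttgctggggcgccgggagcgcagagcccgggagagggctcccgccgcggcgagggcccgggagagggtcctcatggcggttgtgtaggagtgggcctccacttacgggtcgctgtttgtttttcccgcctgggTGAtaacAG
Ncl intron 10, chr1:86352320-86352509, minus strand: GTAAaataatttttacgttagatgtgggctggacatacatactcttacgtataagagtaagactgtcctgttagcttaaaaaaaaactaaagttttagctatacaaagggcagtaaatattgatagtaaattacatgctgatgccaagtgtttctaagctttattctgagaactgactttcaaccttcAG
Pirb intron 6, chr7:3716891-3717117, minus strand: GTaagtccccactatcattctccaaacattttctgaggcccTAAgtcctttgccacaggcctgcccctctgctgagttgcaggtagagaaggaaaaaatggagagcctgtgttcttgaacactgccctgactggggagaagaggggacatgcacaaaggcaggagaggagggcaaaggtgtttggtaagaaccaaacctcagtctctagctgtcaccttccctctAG
Prelid1 intron 3, chr13:55324445-55324526, plus strand: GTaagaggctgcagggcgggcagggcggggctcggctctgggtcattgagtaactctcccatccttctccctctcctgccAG
Cd83 intron 1, chr13:43785251-43785345, plus strand: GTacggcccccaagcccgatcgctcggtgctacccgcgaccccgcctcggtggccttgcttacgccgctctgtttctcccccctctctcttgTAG
Ercc1 intron 8, chr7:19355173-19355292, plus strand: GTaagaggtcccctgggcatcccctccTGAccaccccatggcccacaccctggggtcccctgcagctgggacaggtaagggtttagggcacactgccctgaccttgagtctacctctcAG

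The other leading transcripts mostly held part of an intron. In 91 of the 150 the transcript contained a stretch that runs from intronic sequence into an exon of a coding transcript, so that the annotated 5′ end of the transcript or of one of its exons lies in the intron. That was 60.7%, against 41.7% of the 13025 others and 44.7% of the others at a mean of 1 TPM or more. Of the 92 stretches of this kind, 90 ended in AG at the exon, and their median length was 78.5 bases. In 29 transcripts a stretch ran on from a coding exon into the intron, 28 of the 29 beginning with GT, with a median length of 94 bases. That was 19.3% of the leading transcripts, against 53.2% of the others and 37.1% of the others at a mean of 1 TPM or more. Both kinds of stretch were defined by the edge of an annotated exon, so these bases mostly follow from the annotation and do not check it. The windows below, in the same build and direction, show where these transcripts cross a splice site. Each holds up to 22 bases of the intron and 20 bases of the exon, with the AG or GT of the crossed site in capitals. In the first 5 the intron comes first, and the transcript reads into the exon.
Itm2b, chr14:73368408-73368449, minus strand: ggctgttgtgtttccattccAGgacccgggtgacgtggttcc
Rps16, chr7:28350970-28351011, plus strand: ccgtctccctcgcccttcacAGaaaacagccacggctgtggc
Glmp, chr3:88326093-88326134, plus strand: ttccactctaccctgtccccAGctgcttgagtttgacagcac
Ctnnb1, chr9:120959287-120959328, plus strand: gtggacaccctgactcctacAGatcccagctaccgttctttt
Rela, chr19:5641159-5641200, plus strand: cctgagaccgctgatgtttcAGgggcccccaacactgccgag
In the other 3 the exon comes first, and the transcript reads on into the intron.
Myl12b, chr17:70977026-70977067, minus strand: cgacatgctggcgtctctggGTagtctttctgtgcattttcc
Rpl5, chr5:107903849-107903890, plus strand: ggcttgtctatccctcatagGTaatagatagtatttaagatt
Cdk1, chr10:69345039-69345080, minus strand: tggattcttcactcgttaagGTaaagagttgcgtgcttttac

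Bases outside all exons of coding transcripts were counted. In 10 leading transcripts these include bases beyond the ends of the coding transcripts, which are not intronic. Bases outside were few in most leading transcripts, with a median of 94.5 bases, or 8.08% of the length, and quartiles of 3.80% and 20.1%. In the 13025 other retained_intron transcripts of the 7166 genes the median was 43.4%, and in the 3253 of those at a mean of 1 TPM or more it was 32.4%. Fewer than 50 bases lay outside these exons in 43 leading transcripts (28.7%), against 4.24% of the other 13025. The annotated 3′ end lay within 25 bases of the end of a coding transcript in 60 leading transcripts (40%), against 12.5% of the others and 21.6% of those at 1 TPM or more. A splice junction that no coding transcript of the gene has was found in 6 leading transcripts (4%), against 9.27% of the others and 7.75% of those at 1 TPM or more. The leading transcripts of 4 members, Iqsec1, Vps16, Ccdc84 and Ppp1r3e, had no base outside coding-transcript exons (2.67%, against 0.530% of the others). These 4 were named after their values were seen.

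**Figure D1:**
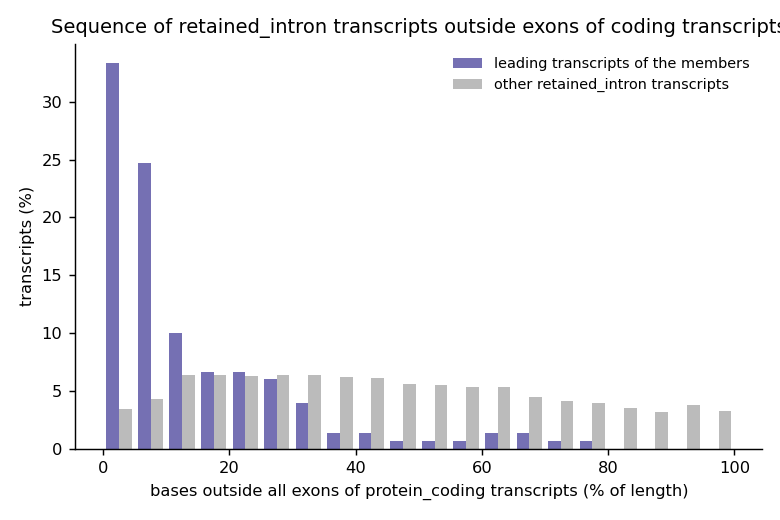
The x axis gives bases outside all exons of protein_coding transcripts of the gene, as percent of transcript length in bins of 5 points; the y axis gives the percent of transcripts. Leading transcripts of the 150 genes crowd at the left, with a median of 8.08%, and the 13025 other retained_intron transcripts spread over the whole axis around a median of 43.4%.

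The leading transcript took a median of 46.7% of its gene's TPM (mean over the libraries, 150 genes), and more than 50% in 58 genes. The library medians were 43.5%, 41.9% and 51.3% in replicates 1, 2 and 3. The lowest mean share was 16.4% and the highest 94.8%. The next transcript of another biotype was protein_coding in 137 genes. Members had a median gene TPM of 33.3, against 28.4 for the other 7016 genes, and a median of 3 annotated retained_intron transcripts against 1. The rule gives every member at least 1 such transcript, while many of the other genes have none, so part of this difference is built in. They lay on every autosome and on X.

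The 12 most abundant members are described first. Rps20 encodes a protein of the small ribosomal subunit. Rps20-201, which keeps the 192-base first intron shown above, had 299, 427 and 105 TPM in replicates 1, 2 and 3, and the leading coding transcript had 52.4, 74.3 and 10.4 TPM. The share of gene TPM was 84.5%, 84.7% and 89.6%, while gene TPM differed 4.31-fold between libraries. Rps16 encodes another protein of that subunit. Rps16-203, which begins in an intron and reads into an exon, was at 235, 259 and 199.6 TPM, against 206, 182 and 9.70 TPM for the leading coding transcript. The share was 35.5%, 38.1% and 85.8%, highest in replicate 3, where the coding transcript was lowest. Rpl5, of the large subunit and outside the 12 most abundant, was led by Rpl5-202 at 76.4, 88.3 and 75.6 TPM, with 54.4, 53.1 and 52.9 TPM for its coding transcript.

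Ncl encodes nucleolin, a nucleolar protein of ribosome synthesis. Ncl-202 keeps 2 complete introns, of 190 and 492 bases, and was at 180, 84.4 and 252 TPM, against 46.3, 18.3 and 33.0 TPM for the coding transcript. Its share was 76.5%, 79.3% and 87.5%, and it led in each library in both quantifications. Rsrp1 encodes an arginine- and serine-rich protein, and Rsrp1-204 keeps an intron of 1302 bases. It was at 81.9, 368 and 60.5 TPM, with shares of 55.4%, 64.6% and 35.4%. In replicate 3, its lowest, a processed_transcript, Rsrp1-208, was ahead at 88.4 TPM. The share was lowest in replicate 3 in 39 of the 150 members.

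Itm2b, the most abundant, encodes a transmembrane protein known to bind the amyloid precursor protein. Itm2b-202 was at 967, 2128 and 3307 TPM, and its coding transcript at 1579, 3061 and 1470 TPM, so the coding transcript was higher in replicates 1 and 2. Pirb, an inhibitory immunoglobulin-like receptor of myeloid cells, had its 227-base intron kept in Pirb-202, at 43.1, 132.5 and 308 TPM against 46.5, 101 and 93.3 TPM. The retained-intron transcript was ahead in replicates 2 and 3. Pirb belongs to a family of close copies, so its reads can be shared with paralogs. Sharing of reads with copies elsewhere in the genome was not measured for any member, the ribosomal protein genes included.

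Lrp1 is a large endocytic receptor. Lrp1-208, of 763 bases beside a coding transcript of 14888, was at 262, 131 and 147 TPM, against 257, 107 and 105 TPM. The 2 transcripts were close in replicate 1, and by expected count Lrp1-208 held a mean of 4.01% of the gene. Myl12b, a regulatory light chain of non-muscle myosin, was led by Myl12b-202 at 203, 222.5 and 328 TPM against 74.4, 84.6 and 71.9 TPM. The annotation places a second gene of the same symbol over it on the same strand, so the division of reads between them is uncertain.

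Glmp encodes a lysosomal membrane protein. Glmp-203 was at 61.5, 89.5 and 177 TPM against 73.8, 102 and 38.8 TPM, ahead in replicate 3 alone. Ctnnb1 encodes beta-catenin, of cell junctions and Wnt signalling. Ctnnb1-215 was at 93.1, 99.4 and 109 TPM against 112, 126 and 24.6 TPM, again ahead in replicate 3 alone. Serbp1, an RNA-binding protein of ribosomes, was led by Serbp1-210 at 123, 61.0 and 385 TPM against 135, 66.1 and 165 TPM. Only 8 of the 665 bases of Serbp1-210 are outside coding-transcript exons. Wnk1, a kinase of ion transport, was led in all 3 libraries by Wnk1-208 at 113, 80.2 and 151 TPM against 65.5, 36.2 and 46.7 TPM.

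**Figure D2:**
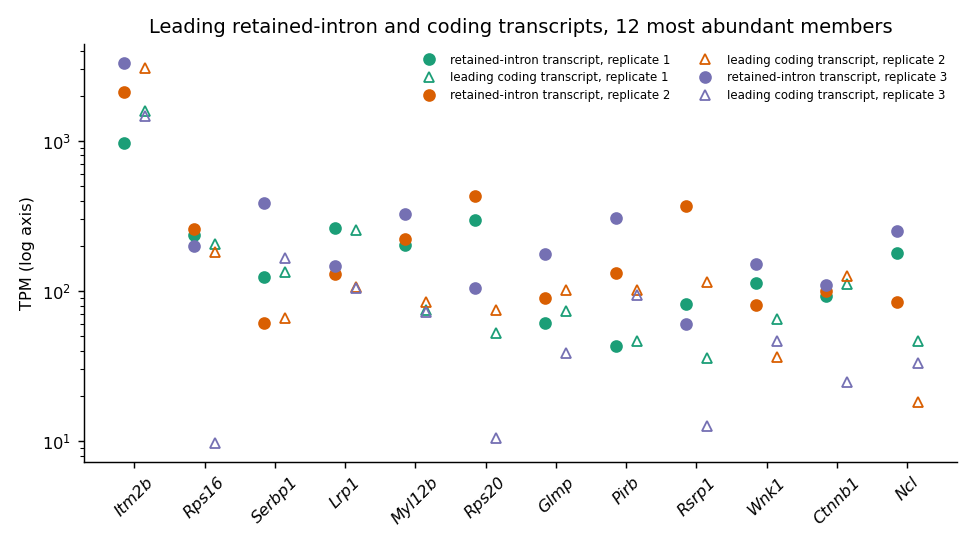
TPM on a log axis for the 12 members of highest mean gene TPM, with filled circles for the leading retained_intron transcript and open triangles for the leading coding transcript, coloured by replicate. In Rps16, Lrp1, Myl12b, Rps20, Rsrp1, Wnk1 and Ncl each circle lies above the triangle of its own library, and in Itm2b, Serbp1, Glmp and Ctnnb1 this holds in replicate 3 alone.

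Of the 6 members with the highest mean share, Rps20 and Ncl are described above, and the other 4 were less abundant. Exoc3l4-211 took 97.0%, 92.6% and 94.9% of its gene's TPM, on gene TPM of 9.84, 11.7 and 5.32. Mrps26, a protein of the small mitochondrial ribosomal subunit, was led by Mrps26-201 with 92.1%, 91.0% and 89.3%. Mrpl57, of the large mitochondrial subunit, was led by Mrpl57-202 with 86.9%, 80.9% and 93.1%. Chic2-202 took 88.0%, 85.6% and 88.8%. In these 4 genes and in Rps20 and Ncl, the retained_intron transcript led in every library in both quantifications, and the shares in the 3 libraries differed by at most 12.2 points.

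The lead varied between libraries. A retained_intron transcript was on top in all 3 libraries in 68 members, in 2 libraries in 43, in 1 library in 37 and in none in 2, Med12 and Fam193b, the first of these counts beside 0.949% of all 7166 genes. It was on top in 103, 105 and 119 members in replicates 1, 2 and 3, beside 1.72%, 1.84% and 3.73% of all 7166 genes. In the kallisto-format tables the counts were 82, 93 and 110, beside 1.9%, 2.47% and 3.7%. Of the 37 members led in 1 library, 29 were led in replicate 3, 6 in replicate 2 and 2 in replicate 1. Across all 7166 genes, 172 were led by such a transcript in replicate 3 alone, 20 in replicate 2 alone and 10 in replicate 1 alone. Those 29 members were chosen for a lead in replicate 3 alone, so a higher share there is built into the choice. Their median share was 22.9% and 24.0% in replicates 1 and 2 and 57.5% in replicate 3. The kallisto-format share, from the same reads, was highest in replicate 3 in all 29. Without replicate 3 the rule gave 136 genes, of which 113 were among the 150. The share summed over all retained_intron transcripts of a gene was another measure. Among the 4829 genes with any retained_intron TPM, it was highest in replicate 2 in 57.1% and in replicate 3 in 27.0%. Among the 150 members, it was highest in replicate 3 in 81 and in replicate 2 in 49. Pooled over the 7166 genes, the retained_intron part of TPM was highest in replicate 3, at 6.19%. The part of depth, source files and library preparation in these differences was not tested.

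The 6 members with the widest range of share, chosen for that range, all had their highest share in replicate 3. Kmt2b encodes a histone H3 lysine methyltransferase. Kmt2b-208, with 13 intronic bases, took 5.37%, 0% and 69.9% of gene TPM, on 4.19, 0 and 271 expected counts. Stk11ip-204 took 0%, 0% and 62.1%, on 0, 0 and 244 expected counts, and 4 of its 513 bases were intronic. Clk3 encodes a kinase of splicing factors. Clk3-202 took 5.79%, 0% and 63.4%, on 3.43, 0 and 293 expected counts. The kallisto-format tables did not list these transcripts at 0: for Clk3-202 they gave 19.9%, 20.6% and 53.1%, and for Stk11ip-204 12.4%, 19.9% and 59.9%. Replicate 3 was the highest in both quantifications, by a smaller gap in the second. A count of 0 allows up to 3 counts, for counting error only. Expected counts also depend on how reads are divided between overlapping transcripts, which that limit leaves out. Usp16, a deubiquitinase of histone H2A, went from 8.44% and 21.8% to 71.0%, Yif1a, of transport between endoplasmic reticulum and Golgi, from 9.85% and 9.38% to 71.9%, and Ginm1 from 15.1% and 12.5% to 71.4%.

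**Figure D3:**
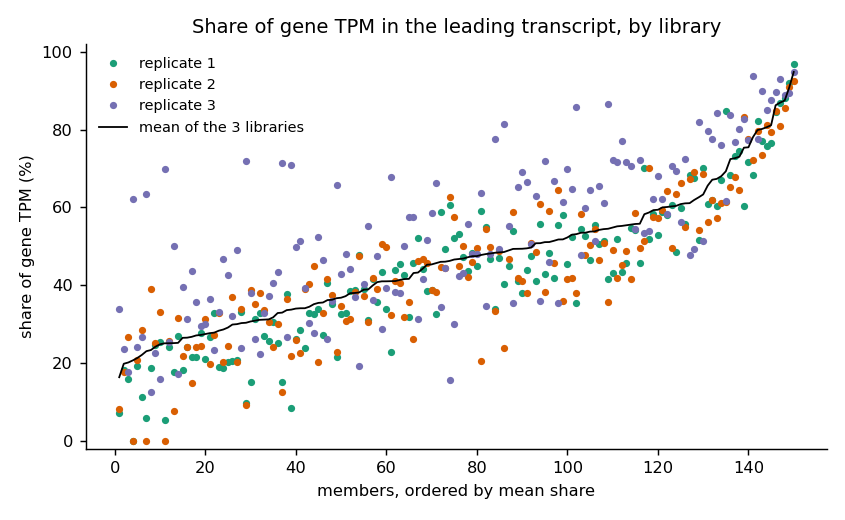
Share of gene TPM in the leading transcript (y axis, percent) for the 150 members ordered by mean share (x axis), with 1 point per library and the mean as a line. Replicate 3 lies above both other libraries in 90 members, and at the left end 3 members have a share of 0% in replicate 2.

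Gene abundance also differed between libraries. Gene TPM differed more than 2-fold between the highest and lowest library in 71 of the 150 members (47.3%), beside 32.5% of all 7166 genes, and more than 4-fold in 8, beside 3.84%. It was highest in replicates 1, 2 and 3 in 43, 62 and 45 members, beside 37.8%, 39.9% and 22.3% of all 7166. Cd83, a surface protein of activated antigen-presenting cells, had gene TPM of 24.7, 149.8 and 61.9. Cd83-202 keeps the 95-base intron shown above and took 68.2%, 65.2% and 83.9%, on top in each library. Dbp, a clock-controlled transcription factor, had gene TPM of 8.12, 47.0 and 33.4, with shares of 59.2%, 20.5% and 63.8%. Man2a2, a Golgi mannosidase, had gene TPM of 12.4, 70.5 and 49.9, with shares of 43.0%, 38.4% and 71.9%. Cdk1, the kinase of mitotic entry, had gene TPM of 86.7, 20.1 and 37.9, with shares of 51.8%, 41.9% and 71.7%.

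The kallisto-format tables, a second quantification of the same reads, gave a set that overlapped in part. In the kallisto-format tables the leading transcript was again retained_intron in 109 of the 150 members, the same transcript in 106, while protein_coding led in 37. That table gave 162 such genes among all 7166 (2.26%), of which 109 are shared, 72.7% of the RSEM-format set and 67.3% of the kallisto-format set. The median share of the RSEM-format leading transcript was 38.6% in the kallisto-format tables. The 6 widest gaps were all lower there. Rpl5-202 took 54.2%, 58.6% and 54.5% by the first and 14.9%, 15.3% and 4.33% by the second. Igf2bp2-207, of an mRNA-binding protein, took 33.9%, 20.3% and 52.3% by the first and 3.60%, 0% and 0.449% by the second, with 8 of 3267 bases intronic. Cerk, the ceramide kinase, had a mean of 60.0% and 35.0%, and Flvcr1, a heme exporter, 54.9% and 32.0%. Zfc3h1, of nuclear RNA decay, had 38.0% and 15.6%, and Pi4ka, a phosphatidylinositol 4-kinase, 36.3% and 13.9%. Both quantifications read the same fragments, so neither serves as a replicate of the other.

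**Figure D4:**
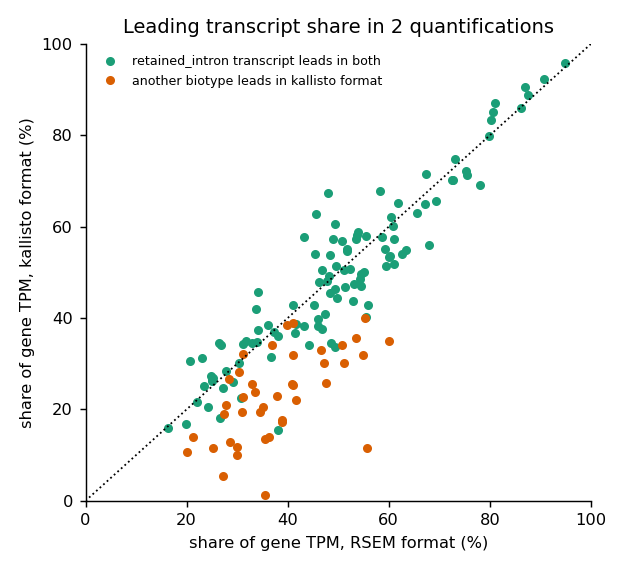
Mean share of gene TPM in the leading transcript by the RSEM-format tables (x axis) and the kallisto-format tables (y axis), 1 point per member, coloured by whether a retained_intron transcript also leads in the kallisto format; the dotted line marks equal shares. The 109 members that lead in both lie on both sides of the line, 50 above it, and 40 of the 41 others lie below it, Rpl5 farthest.

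The lead differed between units. TPM divides by effective length, the number of positions where a fragment can start. The leading transcripts had a median of 1041 bases and the leading coding transcripts 3751.5, and the former was the shorter in 133 members. By expected count, which is not divided by length, a retained_intron transcript led in 50 of the 150, beside 0.949% of all 7166 genes, and a coding transcript in 98. The median share was then 26.3%. Effective lengths were taken from replicate 1 alone. Where the count also led, the effective length of the leading transcript was a median of 0.702 of that of the coding transcript, and in the other 100 members 0.192. In 46 of the 50 the transcript that leads by count was the one that leads by TPM. Chic2-202, of 521 bases beside a coding transcript of 9699, took a mean of 87.5% of TPM and 16.7% of expected counts.

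**Figure D5:**
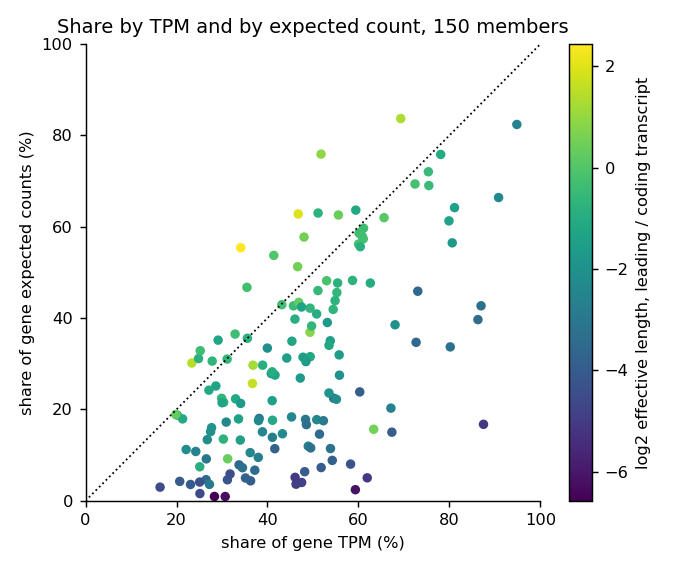
Mean share of gene TPM (x axis) against mean share of expected counts (y axis) for the 150 members. Colour gives the log2 ratio of effective lengths of leading and coding transcript in replicate 1, and the dotted line marks equal shares. Most points lie below the line, Chic2 among them at 87.5% and 16.7%.

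A retained_intron transcript led by TPM, by expected count, in the kallisto-format tables and in every library in 33 of the 150, and in 29 of these it was the same transcript throughout. Of the members named above, Ncl, Cd83, Mrps26, Exoc3l4 and Ppp1r3e, the last with no base outside coding-transcript exons, are among these 29. Others, named after their values were seen, were Prelid1, a mitochondrial lipid-transfer protein, and Tap2, a subunit of the peptide transporter of antigen presentation. Prelid1-202 was at 145, 135 and 99.9 TPM against 31.5, 34.3 and 28.7 TPM, a share of 82.2%, 79.8% and 77.7%. Tap2-202 was at 20.9, 38.3 and 14.0 TPM against 8.26, 11.1 and 4.12 TPM, a share of 71.6%, 77.5% and 77.3%. A retained_intron transcript led by count in 19 of the 30 members whose leading transcript holds a complete intron, and in 31 of the 120 whose leading transcript holds none.

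RSEM gives an interval around each TPM within a library, whose level is not given in the sources used here. The interval of the leading transcript lay above that of the next transcript of another biotype in all 3 libraries in 44 members, in 2 in 26, in 1 in 64 and in none in 16. Near the limit of the rule the leads were small. Inside it, Rela, Ginm1, Phf8, Wdr43, Pik3c2a and Senp6 led by 0.215, 0.357, 0.358, 0.390, 0.652 and 0.721 points of gene TPM. Outside it, Ppfia1, Osgep, Zfp638, Sod2, Asb6 and Arglu1 fell short by 0.204, 0.349, 0.548, 0.767, 0.976 and 0.991 points.

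Rela encodes the p65 subunit of NF-kB, the transcription factor that lipid A signalling activates. Its gene TPM was 40.3, 53.1 and 190.5, and the 786-base Rela-203 took 21.6%, 14.9% and 43.8%. The coding transcript was at 31.2, 45.2 and 23.0 TPM, ahead in replicates 1 and 2, and 35 bases of Rela-203 were intronic. It was the only member among 34 considered genes of Toll-like receptor and NF-kB signalling, 2.94%.

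The other pathway lists held few members, each against the 2.09% of all 7166 genes. Of 72 splicing regulators considered, 1 was a member, Clk3, although the median summed retained_intron share in that list was 10.2%, against 1.13% over all 7166. Of 39 genes of RNA export, decay and polyadenylation 1 was a member, Thoc1, of the THO export complex, whose share was 38.7%, 38.9% and 58.5%. Of 50 chromatin regulators 1 was a member, Kmt2b. Of 20 genes of DNA repair and cell cycle 2 were members, Cdk1 and Ercc1, a nuclease subunit of nucleotide excision repair, whose 120-base intron is shown above. Ercc1-202 took 45.8%, 26.2% and 57.5%, and the coding transcript was ahead in replicate 2. No member was found among 21 interferon regulatory factors, STATs and kinases, 28 aminoacyl-tRNA synthetases, 46 lysosome and autophagy genes, 47 metabolic enzymes or 14 macrophage markers. In these lists, in that order, 14, 27, 34, 38 and 5 genes had any retained_intron transcript, and only these could be members. In lists this short, beside 2.09%, the lack of a member sets no list apart. No test was made of these counts.

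Genes on the opposite strand can add reads where counting does not use strand, which no source used here states. An exon of another gene overlapped the leading transcript on the opposite strand in 30 members and on the same strand in 6. Among the named members these included Prelid1, Ctnnb1, Tap2, Man2a2, Mrps26, Clk3, Thoc1, Dbp, Exoc3l4, Pi4ka and Pik3c2a, all on the opposite strand. No small RNA gene lay inside any leading transcript. These overlaps were counted for the leading transcripts alone, so the counts do not show whether the members differ from other genes.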

How the data were processed

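Polyadenylated RNA of 3 libraries was analysed from the deposited tables. Per the deposited file lists they were made on mm10 with annotation M21, the RSEM-format tables from transcriptome alignments and the kallisto-format tables from reads. No source used here names the aligner, the program versions or the use of strand. Expected counts and estimated counts were deposited by the authors per transcript and need not be whole. TPM values, per the file headers, are length-scaled abundances. The percent of a gene in each transcript (IsoPct) was deposited by the authors and served as an alternative, and shares were otherwise recomputed from TPM. The bounds around TPM are deposited values of another kind, used as they are.

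The biotype came from the transcript names in the kallisto-format tables, where 55450 of the 55536 genes were found. Exons, coding parts and sequences came from GENCODE M21 models on GRCm38. Introns under 30 bases were left out. Coordinates are 1-based.

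No test was made: there is 1 group, and the values that chose the members are not evidence for them. The members and gene lists were chosen with earlier results of these data known. Named were the 12 members of highest gene TPM, 6 each of highest share, smallest margin (with 6 genes just outside), largest fold, largest range of share and largest table difference, and all members in the fixed lists. The selection code was run on simulated tables in which known genes were given a large retained_intron lead and other retained_intron transcripts were emptied. This checked the code alone and says nothing on small leads near the limit of the rule. Alternatives were each library left out, gene TPM minima of 1, 10 and none, other abundance columns, the kallisto-format tables and sums by biotype. Python 3.11.15, pandas 2.3.3, numpy 2.4.6 and matplotlib 3.10.9 were used.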

Additional observations from a re-analysis of the deposited data

How the results depend on the processing

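No paired analysis was possible because there is 1 group of libraries. The count of 150 members was 177, 170 and 136 without replicate 1, 2 or 3, a range of 136 to 177. It was 206 and 124 at gene TPM minima of 1 and 10, 155 by posterior mean TPM, 139 by the deposited isoform percentage, 162 in the kallisto-format tables and 166 by TPM summed over biotypes. It moved to 543 with no gene TPM minimum and to 68 with expected count in place of TPM, which is not divided by length. Leaving out 1 replicate gave 97 to 126 members led in both quantifications, 81 to 104 led in each library left, a median share of 44.5% to 47.2% and 48 to 57 led by count. The 104 came without replicate 3, against 68 with it, and asks for a lead in fewer libraries. The median share of 46.7% moved to 38.6% with kallisto-format TPM and to 26.3% with expected counts, beyond the SD of 5.07 points between library medians. The 109 members that led in both became 46 when the kallisto-format estimated counts were ranked. Of 39 named members, 15 moved by more than their SD with kallisto-format TPM and 21 with expected counts. Without replicate 3 the mean share of Clk3-202 went from 23.1% to 2.90%, that of Kmt2b-208 from 25.1% to 2.68% and that of Ginm1-205 from 33.0% to 13.8%. Fewer than 10 expected counts stood behind 5, 4 and 0 leading transcripts in replicates 1, 2 and 3, so shares of these rest on few fragments.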
